A study of Mus musculus with 31 samples.

Results

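Among 37 genes that set sorted mouse embryonic stem (ES) cells 2-fold or more apart from every other group of the study, 9 are described here. Ipp, Calml4, Lactb2, Ldhc, Cd1d1, Pramel6 and Pramel7 were higher in sorted ES cells, and Arid2 and Itpr2 were lower. They were selected on measured values. In each, the mean of the sorted cells differed 2-fold or more from the mean of each of the 4 other groups. The 9 genes are carried by 13 of 12422 probe sets with exactly 1 gene symbol equal to one of these names, and they are 9 of 8251 genes that the array measures in this way. Where a gene has several such probe sets, the brightest on average stands for it. Values are dChip intensities on a linear scale, in arbitrary units. Differences are on the log2 scale, after values below the 5th percentile of the table (59.6) were raised to it.

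The study followed B6 mouse ES cells into embryoid bodies (EBs), aggregates in which ES cells differentiate spontaneously, on 31 Affymetrix arrays. The study's methods describe ES cells of a single strain, maintained on mouse embryonic feeder cells in serum with LIF. LIF is the cytokine that holds mouse ES cells undifferentiated. RNA was amplified in a pair of linear rounds before labelling. Those methods do not describe the sort or say where the reporter cells came from. Sorted ES cells (day 0, 6 arrays) were separated by FACS on an Oct4-GFP reporter, a fluorescent protein under control of a gene of the undifferentiated state. Gelatin ES cells (day 0, 6 arrays) were depleted of feeders and passaged once on gelatin without the sort. The EBs of day 4 (7 arrays), day 8 (6 arrays) and day 14 (6 arrays) were seeded from gelatin ES cells into nonadherent dishes, and LIF was withdrawn. The labels give day 14, a time that the study's methods do not list, and the labels were followed. Sorted and gelatin ES cells share the day but not the handling, so sort, reporter cells, passage on gelatin and the preparation of the samples cannot be told apart in any difference between them. The study's methods give 6 biological samples for each time point, and its results speak of 6 biological replicates on average. Neither the study nor the labels say whether these were separate cultures, and day 4 has 7 arrays. The p-values therefore measure the spread between these arrays, which may be technical.

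ES cells depend on a small network of transcription factors and can shift between a naive state, close to the preimplantation embryo, and states closer to differentiation. LIF holds them in the naive state. Cultures hold a mixture of these states, and sorting on a reporter picks out part of the mixture. The 9 genes belong to unlike families. Pramel6 and Pramel7 encode leucine-rich repeat proteins of the PRAME family, which are made in the preimplantation embryo and germ line and favour the naive state. Ldhc encodes the lactate dehydrogenase subunit of the testis and sperm. Ipp encodes a kelch-repeat protein whose mouse gene was found through transcripts begun in an intracisternal A particle, an endogenous retrovirus. Calml4 encodes a calmodulin-like protein. Lactb2 encodes an endoribonuclease of mitochondria with a metallo-beta-lactamase fold. Cd1d1 encodes a cell surface molecule that presents lipids to natural killer T cells. Arid2 encodes a subunit of PBAF, a SWI/SNF complex that moves nucleosomes. Itpr2 encodes an inositol trisphosphate receptor, a channel that lets calcium out of the endoplasmic reticulum.

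Promoters of some members that were higher in sorted ES cells are shown, and the adjacent genes Pramel6 and Pramel7 can be compared. That these genes were higher there was fixed by the selection, so no shared control is read from it. RefSeq windows (GRCm38.p6) run from 250 bases before to 50 bases after the start. Of the 9 genes, 6 had a window, with 7 windows in all, and Lactb2, Cd1d1 and Arid2 had none. Capitals mark matches, on either strand, to a SOX motif (ACAAAG) or an E-box (CACGTG). Calml4, also higher, had a window without a match, which is not shown. The windows shown are Pramel6 at chr2:87506315-87506614 (plus strand), Pramel7 at chr2:87492369-87492668 (minus strand), the first of the Ldhc windows at chr7:46861013-46861312 (plus strand) and Ipp at chr4:116507299-116507598 (plus strand).
Pramel6: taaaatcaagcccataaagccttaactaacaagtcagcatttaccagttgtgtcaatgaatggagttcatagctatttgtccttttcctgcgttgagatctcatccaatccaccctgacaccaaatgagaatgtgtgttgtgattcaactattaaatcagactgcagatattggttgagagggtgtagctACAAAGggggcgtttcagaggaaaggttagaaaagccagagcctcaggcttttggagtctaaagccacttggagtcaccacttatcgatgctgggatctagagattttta
Pramel7: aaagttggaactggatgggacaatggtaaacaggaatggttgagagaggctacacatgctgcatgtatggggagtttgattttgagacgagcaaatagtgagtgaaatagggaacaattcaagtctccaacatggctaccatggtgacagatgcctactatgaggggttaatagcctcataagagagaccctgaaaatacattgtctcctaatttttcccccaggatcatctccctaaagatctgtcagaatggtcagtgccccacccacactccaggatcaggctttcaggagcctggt
Ldhc: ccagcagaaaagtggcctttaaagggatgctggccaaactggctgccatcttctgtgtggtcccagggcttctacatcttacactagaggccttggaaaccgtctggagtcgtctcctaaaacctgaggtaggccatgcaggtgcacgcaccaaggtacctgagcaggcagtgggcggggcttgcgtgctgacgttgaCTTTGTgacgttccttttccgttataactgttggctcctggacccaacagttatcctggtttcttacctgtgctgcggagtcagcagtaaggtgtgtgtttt
Ipp: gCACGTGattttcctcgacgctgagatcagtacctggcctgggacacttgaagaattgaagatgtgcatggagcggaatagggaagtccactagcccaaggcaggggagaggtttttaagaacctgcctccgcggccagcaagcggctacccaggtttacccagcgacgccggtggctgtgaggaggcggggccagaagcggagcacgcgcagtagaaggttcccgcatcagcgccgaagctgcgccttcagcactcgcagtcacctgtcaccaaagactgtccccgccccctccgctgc

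No motif was shared by most of these windows. The SOX motif stood 60 bases before the start in Pramel6 and, on the opposite strand, 52 bases before the start in Ldhc. Over all 32851 windows in the table, 18.7% held it. The E-box stood in Ipp, 249 bases before the start, and 7.15% of all windows held one. An octamer (ATGCAAAT, in 1.74% of all windows), a KLF motif (GGGTGTG, 7.95%), an ESRRB motif (AAGGTCA, 4.72%) and a TATA box (TATAAA, 13.6%) matched in none of the 7 windows. None of the motifs searched contains another. The windows differed in CpG dinucleotides. Pramel7 held 1 and Pramel6 held 3, against a median of 7 over all windows, whereas Ipp held 21 and Itpr2 held 26. A match is a description of the letters only.

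Some EB arrays stood apart within their group before any of the 9 genes is considered. At day 8, arrays 1, 3 and 5 had intensities of Zfp42 (REX1), a marker of the undifferentiated state, of 5825, 6845 and 7452, while arrays 2, 4 and 6 had 716, 635 and 730. The sum of 7 markers of undifferentiated ES cells was 27962, 33114 and 34625 on arrays 1, 3 and 5, and 12525, 13792 and 15385 on arrays 2, 4 and 6. The Y-linked gene Eif2s3y followed the same division, at 2447, 2608 and 2434 on arrays 1, 3 and 5 and 579, 358 and 366 on arrays 2, 4 and 6. At day 4, arrays 6 and 7 had the lowest sums of the ES markers (20455 and 23721, others 27673 to 34117) and the highest sums of 5 endoderm markers (3749 and 5309, others 1919 to 2300). Zfp42, Eif2s3y and these arrays were singled out after their values were seen, and results that rest on them are given with and without them. In bulk samples, fewer cells of a type and less RNA per cell cannot be told apart.

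Groups also differed in summed cell markers and in RNA quality. The summed ES markers averaged 42964 in sorted ES cells, 23340 in gelatin ES cells, and 28165, 22900 and 8227 in EBs at day 4, 8 and 14. Between sorted and gelatin ES cells, Zfp42 (7619 and 690) and Fbxo15 (7575 and 1521) differed most. Tdgf1 was lower in sorted ES cells (6027 and 6734), and Nanog, Pou5f1, Dppa4 and Utf1 were higher by less. The sum of 13 markers of fibroblasts, the kind of cell used as feeders, ranged between 20795 and 27729 in sorted ES cells, between 44876 and 72023 in gelatin ES cells, between 12849 and 24502 at day 4, between 17250 and 31518 at day 8 and between 36681 and 56658 at day 14. Not all 13 followed the sum. Col3a1, Vim, Postn, Lum and Dcn averaged somewhat higher in sorted than in gelatin ES cells, and the others lower. The ratio of 3′ to 5′ signal of the Gapdh control, which grows as RNA is shortened, averaged 2.92 ± 0.146 in sorted ES cells, 5.22 ± 1.55 in gelatin ES cells, 3.12 ± 0.750 at day 4, 2.31 ± 0.188 at day 8 and 2.43 ± 0.219 at day 14 (SD, 6 or 7 arrays). The part of these differences in the results was not tested. Array medians lay between 553 and 638, and arrays within a group correlated between 0.947 and 0.997.

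The rule that the 9 genes meet holds for few genes. Over all 8251 genes, 18 (0.218%) were 2-fold or more higher in sorted ES cells than in every other group, 7 of them described here, and 19 (0.230%) were lower, 2 of them described here. These are values the selection used, so nothing is read from the counts. The smallest of the 4 differences between sorted ES cells and another group was 2.57 for Ipp, 2.28 for Calml4, 1.60 for Pramel6, 1.37 for Cd1d1, 1.17 for Ldhc, 1.10 for Lactb2 and 1.00 for Pramel7. For the lower genes it was -1.43 for Arid2 and -1.26 for Itpr2. Pramel7 lay just inside the limit at 2.005-fold, as did Pck2 (2.011-fold). Just outside lay Cdkn1c (lower, 1.998-fold), Trib3 (1.957-fold) and Trap1a (1.949-fold), none of them among the 9 genes. Pramel7 fell out of the rule when any one of 6 arrays was omitted, and the other 8 genes stayed inside whichever single array was omitted. Without day 8 arrays 2, 4 and 6, the smallest difference was 0.87 for Lactb2, 0.68 for Ldhc and -0.70 for Itpr2, and 6 of the 9 genes still met the rule. Without day 8 arrays 1, 3 and 5, or without day 4 arrays 6 and 7, all 9 met it.

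**Figure D1:**
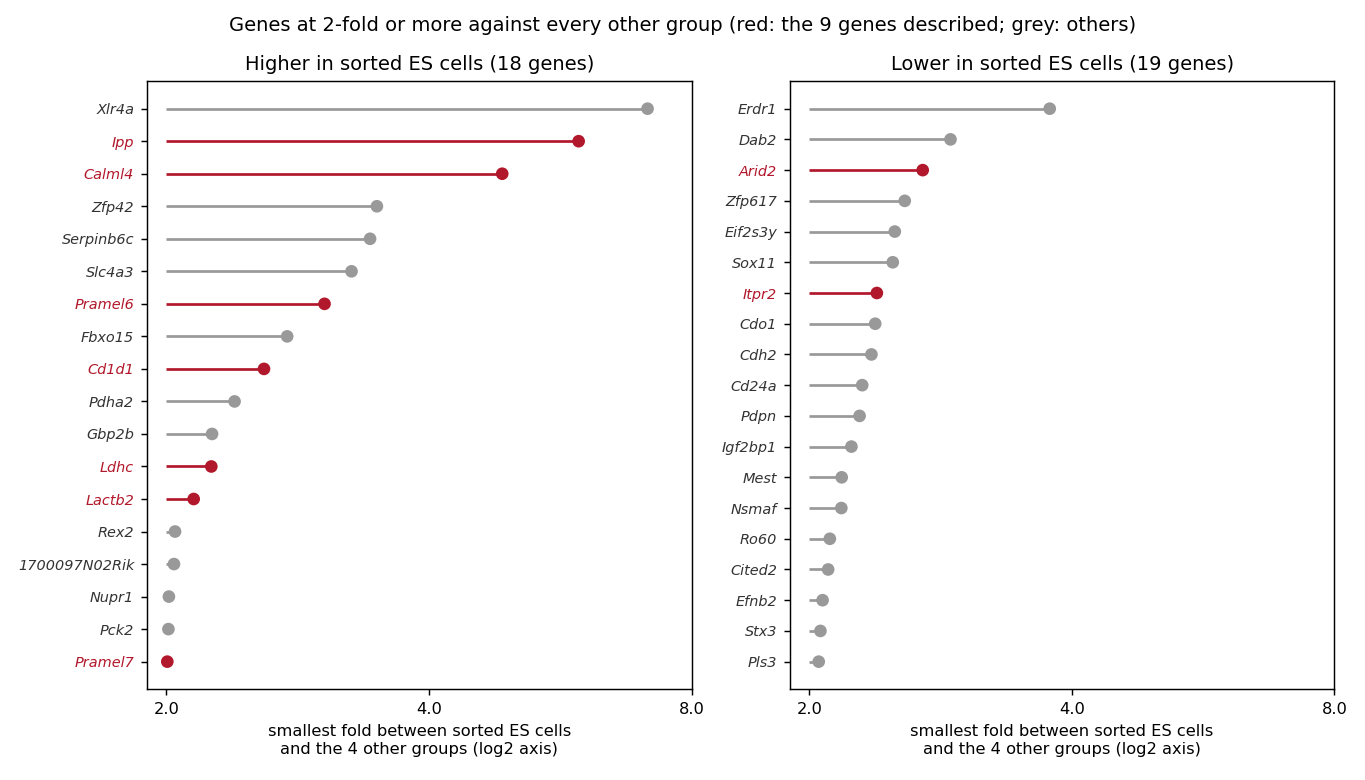
Smallest fold between the mean of sorted ES cells and the means of the 4 other groups (log2 axis) for the 18 genes higher and the 19 genes lower in sorted ES cells, with the 9 genes described in red and other genes in grey. Ipp (5.94-fold) and Calml4 (4.85-fold) lie near the top of the higher genes, and Pramel7 (2.005-fold) is the last of them.

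Among the 28 other genes inside the rule, the 10 with the largest smallest difference were Xlr4a (2.83), Zfp42 (1.80), Serpinb6c (1.78), Slc4a3 (1.71) and Fbxo15 (1.46), which were higher in sorted ES cells, and Erdr1 (-1.92), Dab2 (-1.54), Zfp617 (-1.36), Eif2s3y (-1.33) and Sox11 (-1.32), which were lower. Fbxo15 and Zfp42 are genes of undifferentiated cells, Dab2 is an adaptor of endoderm, and Sox11 is a transcription factor of neural progenitors. The Y-linked Eif2s3y averaged 133 in sorted ES cells, 538 in gelatin ES cells, and 357, 1465 and 329 at day 4, 8 and 14. Whether the sorted cells came from the same line as the others was not tested.

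Ipp and Calml4 had the widest separation of the 9 genes, by the smallest difference from another group. Intensity of Ipp in sorted ES cells ranged between 2918 and 5045 with a median of 3918. It lay between 439 and 529 (median 477) in gelatin ES cells, between 462 and 597 (median 508) at day 4, between 490 and 663 (median 588) at day 8 and between 563 and 734 (median 636) at day 14. The lowest sorted array thus stood above every array of the other groups, whose own ranges overlapped from one time to the next. Calml4 ranged between 1214 and 1768 (median 1491) in sorted ES cells. It ranged between 260 and 342 (median 302) in gelatin ES cells, between 243 and 394 (median 282) at day 4, between 202 and 274 (median 232) at day 8 and between 204 and 237 (median 214) at day 14. Among these 4 groups the order of Calml4 ran opposite to that of Ipp, with gelatin ES cells at the top for Calml4 and day 14 EBs at the top for Ipp.

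**Figure D2:**
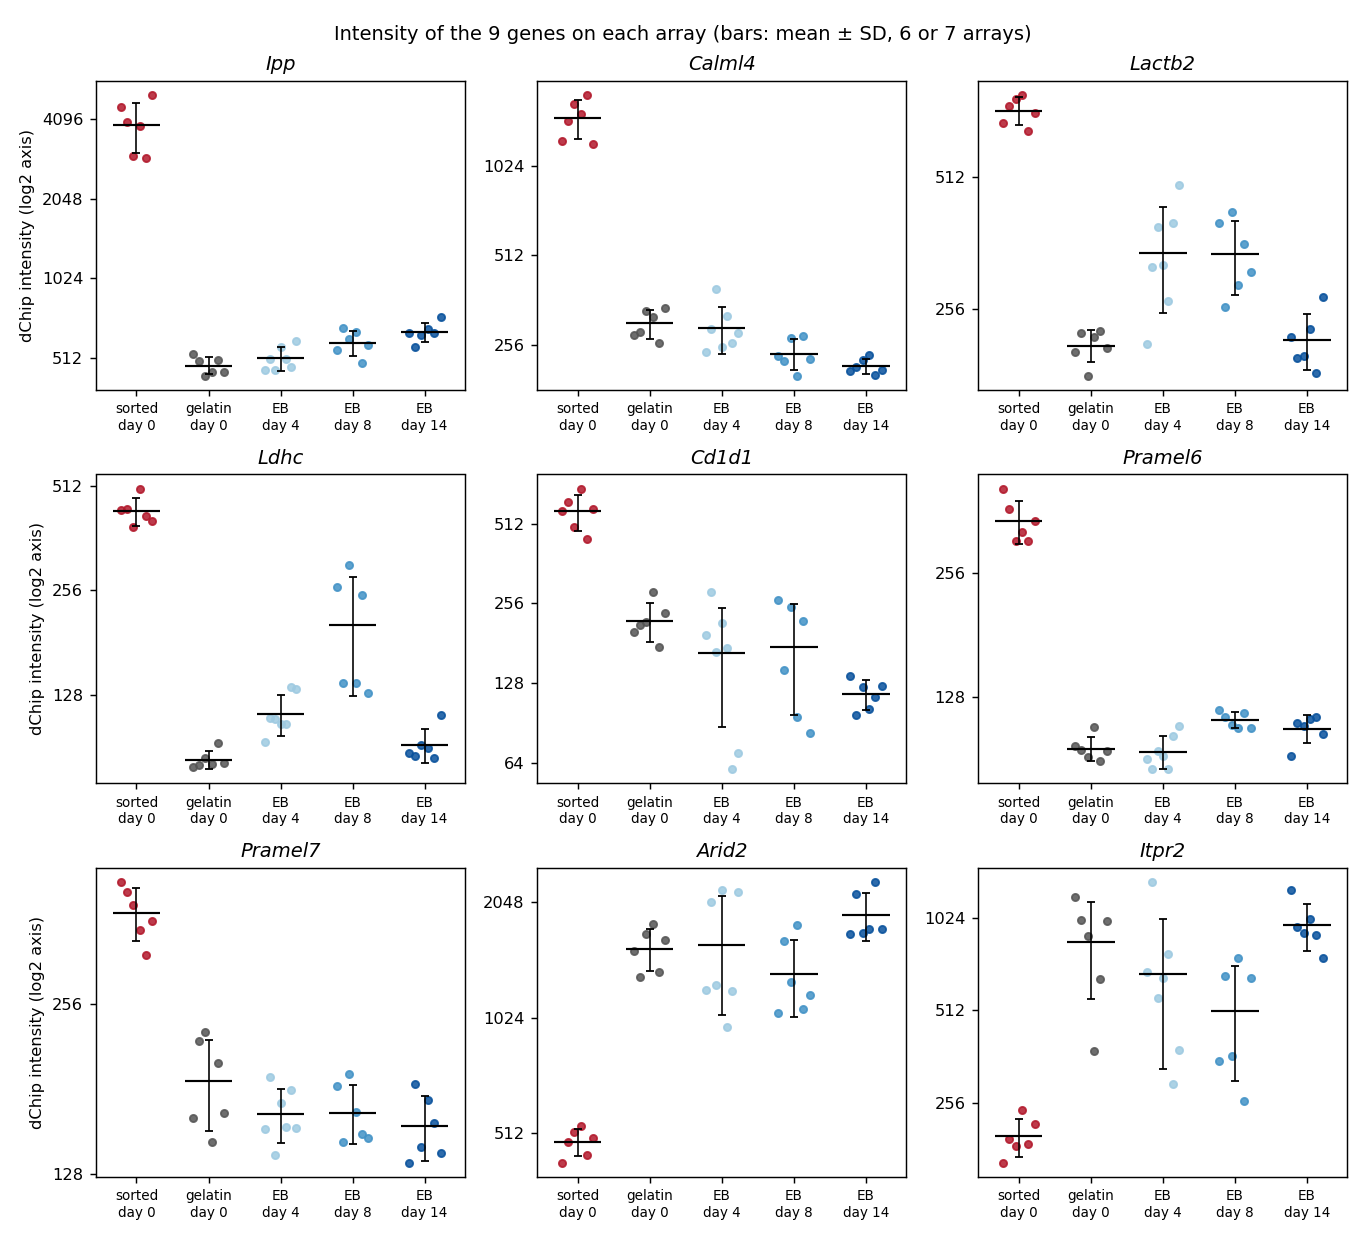
Intensity (log2 axis) of the 9 genes on each array in sorted ES cells, gelatin ES cells and EBs of day 4, 8 and 14, with points for arrays and bars for mean ± SD (6 or 7 arrays). Sorted ES cells overlap no other group in any of the 9 panels, which selection on group means favours. The share of all genes without overlap was not determined. Ldhc, Cd1d1, Arid2 and Itpr2 spread most within the day 4 or day 8 EBs.

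Pramel6 and Pramel7, neighbours on the same chromosome, were both higher in sorted ES cells. Pramel6 ranged between 306 and 412 (median 333) there. In gelatin ES cells it ranged between 89.0 and 108 (median 94.5), at day 4 between 85.2 and 108 (median 91.5), at day 8 between 108 and 119 (median 112) and at day 14 between 91.5 and 114 (median 109). All 25 arrays of the other groups therefore lay in a narrow band far below the sorted ones. Pramel7 ranged between 313 and 422 (median 371) in sorted ES cells, between 146 and 228 (median 183) in gelatin ES cells, between 138 and 190 (median 155) at day 4, between 146 and 193 (median 158) at day 8 and between 134 and 185 (median 151) at day 14. Its nearest group was gelatin ES cells. No other gene of the PRAME family was measured by a probe set with 1 symbol, so the pair could not be set beside its relatives.

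Ldhc was high in sorted ES cells and again, in part, in some day 8 EBs. It ranged between 390 and 503 (median 427) in sorted ES cells, between 79.5 and 93.1 (median 81.4) in gelatin ES cells, between 93.8 and 135 (median 109) at day 4, between 130 and 302 (median 193) at day 8 and between 84.5 and 112 (median 88.8) at day 14. Day 8 arrays 1, 3 and 5 had 262, 302 and 248, and arrays 2, 4 and 6 had 139, 138 and 130. Its high and low arrays at day 8 were those that were high and low in the ES markers. The other lactate dehydrogenase subunits did not follow it: the muscle-type Ldha averaged 19024 in sorted ES cells, 14803 in gelatin ES cells, and 15999, 19884 and 23944 at day 4, 8 and 14. The heart-type Ldhb averaged 4935 in sorted ES cells, 4013 in gelatin ES cells, and 6534, 8974 and 4272 at day 4, 8 and 14. Ldha is also the nearest measured neighbour of Ldhc on the chromosome. Pdha2, the testis form of a pyruvate dehydrogenase subunit, did move in the same direction as Ldhc, with 204 in sorted ES cells, 64.5 in gelatin ES cells, and 65.0, 85.9 and 67.9 at day 4, 8 and 14. Its widely expressed counterpart Pdha1 did not pass in all 4 comparisons.

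**Figure D3:**
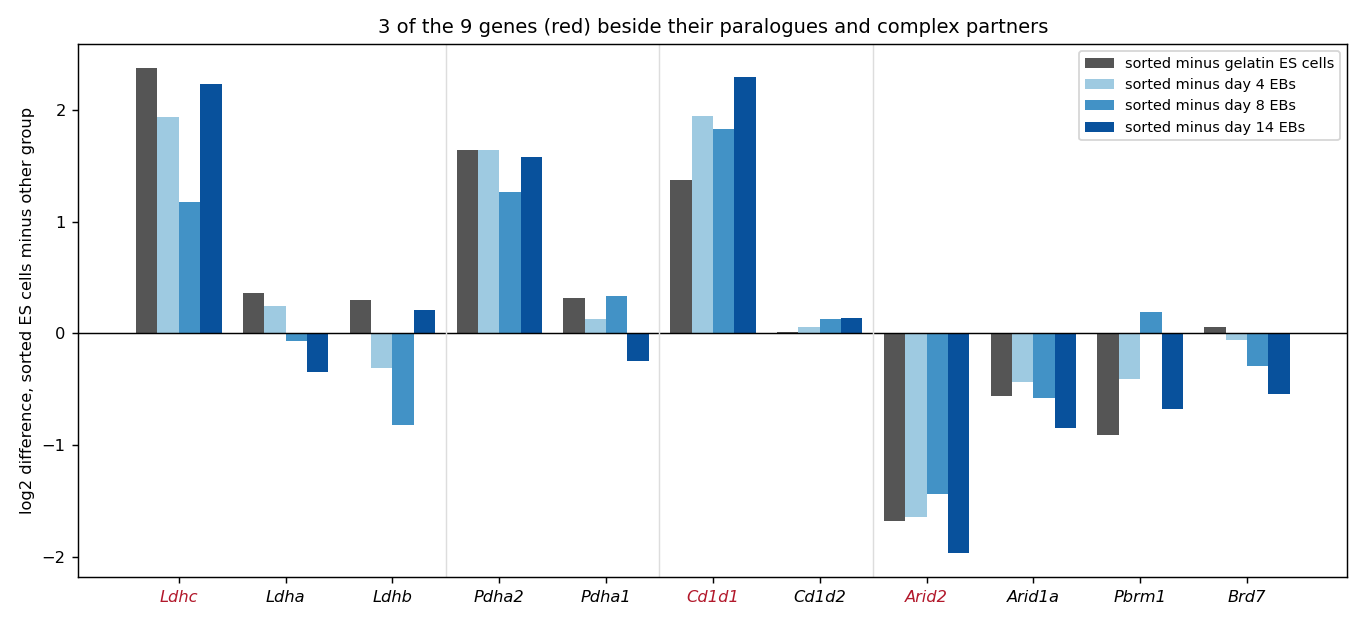
Log2 difference of sorted ES cells minus each of the 4 other groups (bars) for Ldhc, Cd1d1 and Arid2 (red names) beside paralogues and partners in the same enzyme or complex. Bars of Ldhc, Cd1d1 and Pdha2 all lie above 1, while those of Ldha, Ldhb, Pdha1 and Cd1d2 lie between -0.81 and 0.36.

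Cd1d1 and Lactb2 were higher in sorted ES cells and varied widely among EB arrays. Cd1d1 ranged between 449 and 696 (median 578) in sorted ES cells, between 175 and 283 (median 215) in gelatin ES cells, between 60.4 and 282 (median 174) at day 4, between 83.0 and 264 (median 181) at day 8 and between 97.0 and 136 (median 118) at day 14. Its lowest day 4 arrays, 6 and 7, were those with the lowest ES and highest endoderm markers, and its day 8 values of 264, 248 and 220 on arrays 1, 3 and 5 exceeded the 143, 95.6 and 83.0 on arrays 2, 4 and 6. The paralogue Cd1d2, which lies next to Cd1d1, averaged 202 in sorted ES cells, 199 in gelatin ES cells, and 195, 184 and 183 at day 4, 8 and 14. A further probe set that carries both symbols was not used. B2m, the light chain of CD1 and class I molecules, averaged 2306 in sorted ES cells, 4291 in gelatin ES cells, and 2623, 4134 and 7466 at day 4, 8 and 14, and did not pass in all 4 comparisons. Lactb2 ranged between 651 and 786 (median 730) in sorted ES cells, between 181 and 228 (median 215) in gelatin ES cells, between 214 and 491 (median 322) at day 4, between 259 and 426 (median 336) at day 8 and between 183 and 272 (median 211) at day 14. Gelatin ES cells and day 14 EBs were alike in range, with the other EBs between them and the sorted cells. Unlike Cd1d1, Lactb2 had its highest day 4 values on arrays 6 and 7 (402 and 491). Another Lactb2 probe set did not set sorted ES cells apart: it averaged 207 in sorted ES cells, 249 in gelatin ES cells, and 256, 260 and 189 at day 4, 8 and 14.

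Arid2 and Itpr2 were lower in sorted ES cells. Arid2 ranged between 428 and 535 (median 490) in sorted ES cells, between 1308 and 1801 (median 1578) in gelatin ES cells, between 970 and 2211 (median 1249) at day 4, between 1050 and 1788 (median 1221) at day 8 and between 1689 and 2315 (median 1746) at day 14. Every array of the other groups exceeded every sorted array. Pbrm1, another subunit of PBAF, averaged 1843 in sorted ES cells, 3437 in gelatin ES cells, and 2521, 1658 and 2936 at day 4, 8 and 14, and Brd7, a further PBAF subunit, averaged 1768 in sorted ES cells, 1689 in gelatin ES cells, and 1825, 2155 and 2560 at day 4, 8 and 14. Neither passed in all 4 comparisons. Arid1a, the subunit that takes the place of Arid2 in the BAF form of the complex, averaged 1768 in sorted ES cells, 2601 in gelatin ES cells, and 2411, 2638 and 3169 at day 4, 8 and 14, and was lower in sorted ES cells in all 4 comparisons, with a smallest difference of -0.44 (limma, largest adjusted p = 0.000496).

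Itpr2 ranged between 163 and 243 (median 191) in sorted ES cells, between 377 and 1206 (median 949) in gelatin ES cells, between 294 and 1346 (median 652) at day 4, between 260 and 759 (median 508) at day 8 and between 760 and 1267 (median 939) at day 14. Its lowest arrays outside the sorted group were day 8 array 5 and day 4 array 6. Of 3 other Itpr2 probe sets, 1 was lower in sorted ES cells than in every other group but by less (336 in sorted ES cells, 503 in gelatin ES cells, and 460, 387 and 491 at day 4, 8 and 14). On the remaining pair sorted ES cells were highest, not lowest, but by at most 0.02 over the nearest group. On 1 of these, values were raised to the floor on 20 of 31 arrays. For Itpr2 and Lactb2 the 2-fold difference was thus seen on 1 probe set each. Itpr1 and Itpr3 had no probe set with 1 symbol.

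Genes related to the 9 by family or process were counted next. A gene outside the 9 was counted when its adjusted p was under 0.05 in all 4 comparisons of sorted ES cells with another group, in the same direction (limma). Over all 8251 genes 4.12% were higher and 4.02% were lower by that measure. Of 25 measured genes of lactate metabolism and glycolysis, 1 was higher (Pdha2) and 2 were lower (Pkm, the last kinase of glycolysis, and Slc2a3, a glucose transporter). Of 31 genes of calcium signalling, 2 were higher (the kinase Camk2a and the transcription factor Nfatc2, each by 0.22 or less at the nearest group) and 1 was lower (Ppp3ca, a calcineurin subunit, -0.81). Of 18 SWI/SNF genes, 1 was higher (Smarcd2) and 2 were lower (Arid1a and Smarcc1). Of 25 genes of CD1 and class I antigen presentation, 0 were higher and 3 were lower (the peptide transporter Tap1, and Psap and Ctsl, which act in the lysosome). None of 14 genes of the metallo-beta-lactamase fold and mitochondrial RNA processing and none of 10 kelch-repeat genes passed in either direction. Each of these counts is of 3 genes or fewer, in lists of 10 to 31.

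Genes of the germ line and of undifferentiated cells were counted in the same way. Of 35 measured germ line and cleavage-stage genes, 10 were higher in sorted ES cells and 0 were lower. They were Xlr4a, Pdha2, Odf2, Magea4, Dazl, Zp3, Ybx2, Usp17la, Dmc1 and Hspa1l, and after Xlr4a (2.83) and Pdha2 (1.26) the smallest difference of the others was 0.41 or less. Xlr4a, an X-linked gene of a germ cell family, averaged 762 in sorted ES cells, 65.1 in gelatin ES cells, and 67.4, 107 and 62.4 at day 4, 8 and 14. Odf2, a protein of the sperm tail and centrosome, averaged 1378 in sorted ES cells, 974 in gelatin ES cells, and 1061, 1003 and 816 at day 4, 8 and 14. Of 34 pluripotency genes, 5 were higher (Zfp42, Fbxo15, Klf4, Fgf4 and Tcl1) and 0 were lower. The median difference between sorted and gelatin ES cells was 0.22 over the germ line list and 0.45 over the pluripotency list, beside 0 over all genes. Of 37 genes of dissociation and stress, 4 were higher (Nupr1, Trib3, Atf4 and Junb) and 1 was lower (Btg2). Their median difference between sorted and gelatin ES cells was -0.09. The sum of 7 dissociation markers averaged 7540 in sorted ES cells and 12268.5 in gelatin ES cells. At day 4, 8 and 14 that sum averaged 9155, 6794 and 9605. Of 30 feeder fibroblast genes, 2 were higher (Mgp and Col6a2) and 0 were lower. The median difference between sorted and gelatin ES cells over the fibroblast list was -0.54. Atf4, a transcription factor of the response to amino acid shortage, averaged 6809 in sorted ES cells, 2993 in gelatin ES cells, and 4026, 3523 and 3420 at day 4, 8 and 14. All these lists were chosen with earlier results of these arrays known.

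Differences among the 4 groups other than sorted ES cells were not used to choose the genes, and these were tested (limma, adjusted p over all 12422 probe sets). At day 4 against gelatin ES cells, 2 of the 9 genes were higher and 0 were lower, where 8.33% of all genes were higher and 17.8% were lower. Lactb2 averaged 344 ± 92.6 in day 4 EBs and 212 ± 17.8 in gelatin ES cells (SD), a difference of 0.66 ± 0.14 (SE, adjusted p = 0.00078). The other Lactb2 probe set did not show this rise (0.04, adjusted p = 0.824). Ldhc averaged 113 ± 15.3 in day 4 EBs and 83.4 ± 5.01 in gelatin ES cells, a difference of 0.43 ± 0.15 (adjusted p = 0.0347). Their arrays did not overlap, but the share of all genes without overlap was not determined. The Ldhc difference was 0 with the floor raised to the 25th percentile. Without day 4 arrays 6 and 7, Lactb2 still passed (0.49, adjusted p = 0.00674) and Ldhc did not (0.33, adjusted p = 0.148). The Ldhc call was also lost when any one of gelatin arrays 1, 2, 3, 4 and 6 was omitted.

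At day 8 against day 4, 2 genes were higher and 1 was lower, where 13.6% of all genes were higher and 13.0% were lower. Ldhc averaged 203 ± 76.1 in day 8 EBs and 113 ± 15.3 in day 4 EBs, a difference of 0.77 ± 0.15 (adjusted p = 0.000403). Its size rested on the day 8 arrays with high ES markers. It was 0.27 (adjusted p = 0.0424) without arrays 1, 3 and 5, and 1.26 (adjusted p = 1.452e-09) without arrays 2, 4 and 6. Pramel6 averaged 112 ± 4.90 in day 8 EBs and 93.9 ± 8.72 in day 4 EBs, a difference of 0.26 ± 0.07 (adjusted p = 0.0042), which was 0.23 (adjusted p = 0.0549) without arrays 1, 3 and 5. With the floor raised to the 25th percentile, the Pramel6 difference was 0 and the Ldhc difference was 0.14 (adjusted p = 0.0661). Calml4 averaged 240 ± 27.8 in day 8 EBs and 292 ± 52.1 in day 4 EBs, a difference of -0.27 ± 0.10 (adjusted p = 0.0497). That call was lost without day 8 arrays 2, 4 and 6 (-0.15, adjusted p = 0.441) and without any one of day 4 arrays 2, 3, 5 and 7 or day 8 arrays 1, 2, 4 and 6. Without day 4 arrays 6 and 7 these 3 calls held, and Itpr2 was lower too (-0.70, adjusted p = 0.0481), against -0.36 ± 0.29 (adjusted p = 0.403) with them.

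**Figure D4:**
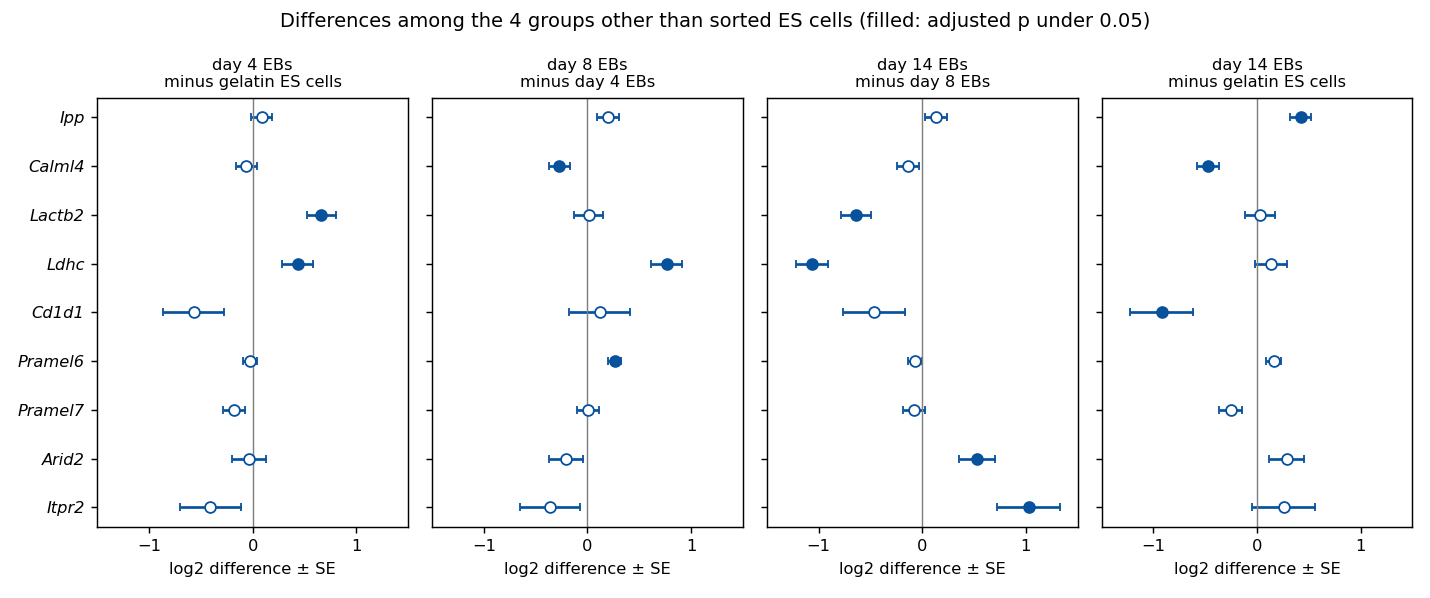
Log2 difference ± SE of the 9 genes in the 4 comparisons that leave out sorted ES cells, with filled points where adjusted p was under 0.05 (limma). Ldhc is higher by 0.77 at day 8 and lower by 1.06 at day 14, each against the time before, and Itpr2 has the widest errors with Cd1d1.

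At day 14 against day 8, 2 genes were higher and 2 were lower, where 21.1% of all genes were higher and 13.0% were lower. Itpr2 averaged 971 ± 168 in day 14 EBs and 508 ± 208 in day 8 EBs, a difference of 1.03 ± 0.30 (adjusted p = 0.0106). Its other probe sets differed by 0.34 (adjusted p = 0.0199), -0.04 (adjusted p = 0.638) and -0.08 (adjusted p = 0.487). Arid2 averaged 1893 ± 271 in day 14 EBs and 1330 ± 305 in day 8 EBs, a difference of 0.53 ± 0.17 (adjusted p = 0.0205). Ldhc averaged 92.0 ± 10.4 in day 14 EBs and 203 ± 76.1 in day 8 EBs, a difference of -1.06 ± 0.16 (adjusted p = 1.224e-05), which was -0.14 (adjusted p = 0.0626) with the floor raised to the 25th percentile. Lactb2 averaged 218 ± 31.7 in day 14 EBs and 341 ± 65.6 in day 8 EBs, a difference of -0.64 ± 0.14 (adjusted p = 0.00139), and its other probe set differed by -0.46 (adjusted p = 0.000216). Without day 8 arrays 1, 3 and 5 the Ldhc call alone held (-0.57, adjusted p = 0.000486), while Lactb2 had -0.41 (adjusted p = 0.137), Arid2 0.32 (adjusted p = 0.396) and Itpr2 0.47 (adjusted p = 0.441). Without day 8 arrays 2, 4 and 6 all 4 calls held, and Cd1d1 was lower too (-1.08, adjusted p = 0.0102). The Arid2 call was lost as well when day 8 array 1 or 5, or day 14 array 5, was omitted.

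Over the whole interval, day 14 EBs against gelatin ES cells, 1 gene was higher and 2 were lower, where 22.8% of all genes were higher and 24.1% were lower. Ipp averaged 643 ± 55.2 in day 14 EBs and 480 ± 35.1 in gelatin ES cells, a difference of 0.42 ± 0.11 (adjusted p = 0.00174). Calml4 averaged 217 ± 12.6 in day 14 EBs and 303 ± 33.6 in gelatin ES cells, a difference of -0.47 ± 0.11 (adjusted p = 0.000562). Cd1d1 averaged 116 ± 14.9 in day 14 EBs and 220 ± 36.7 in gelatin ES cells, a difference of -0.92 ± 0.30 (adjusted p = 0.0149), which was -0.07 (adjusted p = 0.617) with the floor raised to the 25th percentile. In each of these 3 genes the arrays of the groups did not overlap. The share of all genes without overlap was not determined, so nothing is read from it. Neither Pramel6 (0.16, adjusted p = 0.0584) nor Pramel7 (-0.25, adjusted p = 0.0559) passed. Lactb2 did not pass either (0.03, adjusted p = 0.901), whereas its other probe set was lower (-0.40, adjusted p = 0.000392). The medians over the 9 genes in the 4 comparisons were -0.03, 0.01, -0.08 and 0.14, beside -0.02, 0.00, 0.03 and 0.00 over all genes. Among these groups the 9 genes thus passed in both directions in each comparison but the one of day 4 with gelatin ES cells.

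Within day 8 EBs the genes divided along the same arrays as the ES markers. Ldhc, Cd1d1, Lactb2 and Calml4 had their highest values on arrays 1, 3 and 5, and Itpr2 had its highest on arrays 2, 4 and 6. Itpr2 had 351, 363 and 260 on arrays 1, 3 and 5, and 665, 759 and 653 on arrays 2, 4 and 6. Lactb2 had 401, 426 and 360 on arrays 1, 3 and 5, and 259, 290 and 311 on arrays 2, 4 and 6. Calml4 had 235, 271 and 274 on arrays 1, 3 and 5, and 227, 202 and 229 on arrays 2, 4 and 6. In each of these 5 genes the arrays with high ES markers thus lay on the side of the sorted ES cells. Arid2 leaned the same way with overlap (1050, 1267 and 1080 on arrays 1, 3 and 5, and 1622, 1788 and 1174 on arrays 2, 4 and 6). Pramel7 also overlapped, with 183, 193 and 151 on arrays 1, 3 and 5, and 146, 165 and 149 on arrays 2, 4 and 6. Ipp leaned away from the sorted side, with overlap: it had 548, 603 and 490 on arrays 1, 3 and 5, and 663, 640 and 573 on arrays 2, 4 and 6. Pramel6 stayed between 108 and 119 on all 6. Day 4 did not follow day 8 throughout. Ldhc (135 and 134) and Lactb2 (402 and 491) were highest on day 4 arrays 6 and 7, which had the lowest ES markers. Itpr2 (294 and 379) was lowest there, so these genes lay toward the sorted side on arrays low in ES markers. Cd1d1 was also lowest there (60.4 and 69.7), away from that side, and Calml4 (260 and 282) was at neither end. These arrays were told apart by their values and not by their labels, so no test was made between them.

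**Figure D5:**
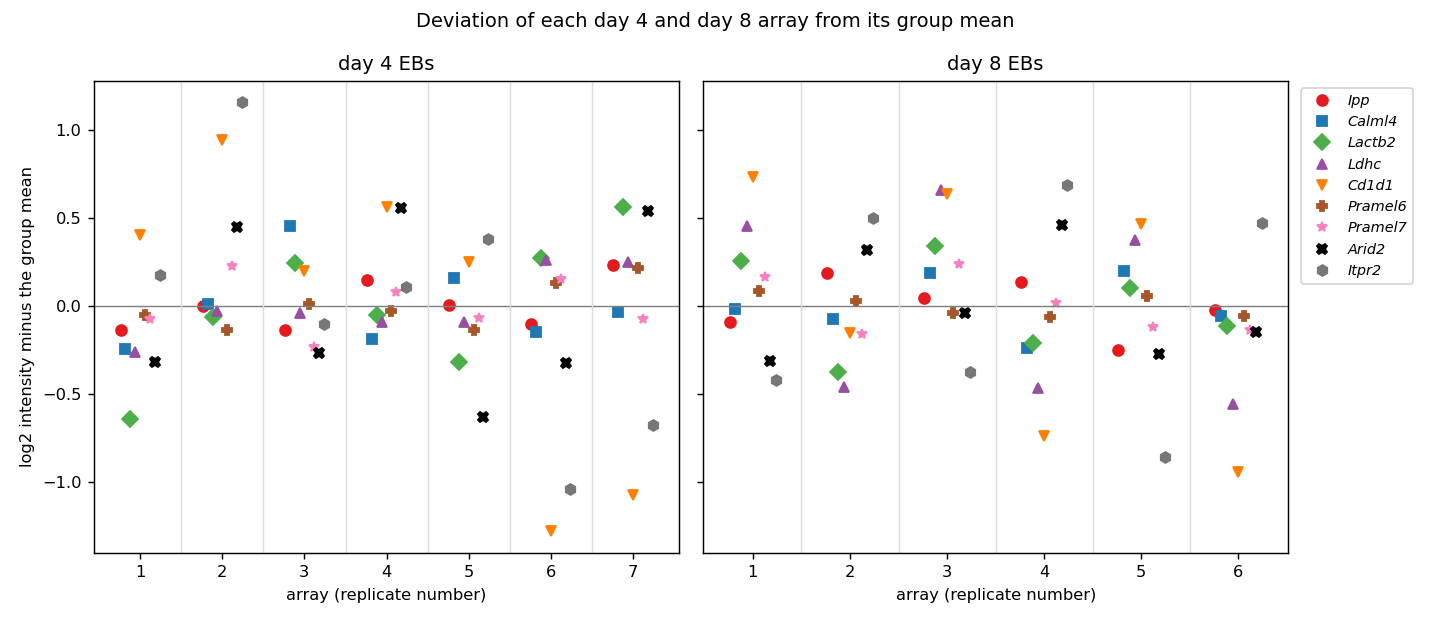
Log2 intensity minus the group mean for the 9 genes on each array of day 4 EBs (7 arrays) and day 8 EBs (6 arrays), by replicate number. At day 8, Ldhc and Cd1d1 lie high and Itpr2 low on arrays 1, 3 and 5, and at day 4 Cd1d1 and Itpr2 lie lowest on arrays 6 and 7.

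Genes most like each of the 9 over the 31 arrays were found by Pearson's r of log2 intensity. These values share the difference between sorted ES cells and the rest, which the selection used, and are given as a description. Xlr4a stood among the 3 most similar genes of Ipp (0.951), Ldhc (0.928), Pramel6 (0.963) and Pramel7 (0.897). The anion exchanger gene Slc4a3 stood among those of Ipp (0.940), Calml4 (0.979), Pramel6 (0.956) and Pramel7 (0.911). Pck2, a mitochondrial enzyme that makes phosphoenolpyruvate, led for Ipp (0.960) and Pramel6 (0.965), and Tcl1, a kinase coactivator of ES cells, led for Lactb2 (0.920) and Ldhc (0.954). Other genes among the leading 3 were Trib3 and 1700097N02Rik for Calml4, Sec61b and Hax1 for Lactb2, Gbp2b for Ldhc, and Tktl1 for Pramel7. Cd1d1 was most like Tpd52l1 (0.903), Bcat1 (0.896) and Glo1 (0.891). Arid2 was most like Stx3 (0.939), Ro60 (0.934) and Cdip1 (0.914), and Itpr2 was most like Wbp1l (0.889), Sdcbp (0.885) and Slc35a1 (0.885).

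Neighbours on the chromosome were looked at as a description. Of 16 nearest measured neighbours outside the 9, 0 met the rule, which 0.218% and 0.230% of all genes met as higher and lower, so the count says nothing particular about neighbours. Of the 16, 1, Scaf11 beside Arid2, was lower in all 4 comparisons (smallest difference -0.33). Pramel6 and Pramel7 are each other's nearest measured neighbours and were both higher. Calml4 and Itpr2, both tied to calcium, lay on opposite sides in sorted ES cells. No share of all genes with these roles was determined, so no role is read as common to the 9 genes.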

How the data were processed

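Total RNA was extracted, amplified in a pair of linear rounds, labelled with biotin and hybridised by the authors. The values the authors deposited are linear intensity values that dChip normalized across arrays and summarised from the probes. The dChip version and probe model are not given in the sources used here. Of 387128 values, 104 are exactly 0. The study's methods give 6 biological samples for each time point. Arrays were taken as separate samples.

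The table holds 12488 probe sets, and 12422 were tested after removal of 66 controls. Of these, 10833 carry 1 gene symbol, 396 carry several and 1193 are unnamed here. A gene is its brightest probe set with 1 symbol (8251 genes). Values under the 5th percentile (59.6) were raised to it and log2 transformed. One linear model with 5 group means was fitted (R 4.3.3, limma 3.58.1, eBayes with a variance trend), with Benjamini-Hochberg adjustment at 0.05. The arrays' number limits the precision. The procedure was tested on simulated data. Figures were drawn with matplotlib 3.10.9.

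The 9 genes and all lists were chosen with earlier results of these data known. No test of the 9 genes is given for the comparison that chose them. Genes of the lists, paralogues, partners and neighbours were tested in that comparison. Other genes named are the 3 most like each of the 9, the 10 others with the largest smallest difference, up to 3 of a list in each direction (all where counts were given), and paralogues or partners. Several list genes beyond that, Cdkn1c, Trap1a, the neighbours, Pdha1 and Eif2s3y's array values were named after their values were seen. Alternatives were another scaling, another floor, averaging over probe sets, other group averages, a fit of the 2 groups alone, array weights, a replicate block, eBayes without its trend, dim probe sets (the lowest 40%) left out, a 2-fold change as well, and omission of arrays. Omission of several day 4 or day 8 arrays together was chosen after seeing the data. Replicate numbers were not taken to pair samples. Over 60 pairs, deviations of arrays with the same number correlated between -0.351 and 0.494, and 23 of these exceeded 0.1. Arrays with different numbers were not compared, so whether the numbers pair samples cannot be decided from these values.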

Additional observations from a re-analysis of the deposited data

Results flagged for a closer look

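Array values far from the rest of their group were found for Ldhc in 2 of 45 groups examined (9 genes in 5 groups), where chance gives about 1 in 20. Ldhc was 112 on day 14 array 6, and the next highest day 14 array had 92.0. Ldhc was 93.1 on gelatin array 5, and the next highest gelatin array had 84.3. Day 14 array 6 also had the highest sum of the 7 ES markers at day 14 (13343, others 5180 to 8971) and the highest Zfp42 (626, others 224 to 336). The part of these in the Ldhc value was not tested.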

How the results depend on the processing

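The count of the 9 genes inside the 2-fold rule was 6 with the floor at the 25th percentile and 6 without day 8 arrays 2, 4 and 6. Elsewhere it lay between 7 and 9. The count of list genes passing in all 4 comparisons (33) lay between 22, without day 8 arrays 2, 4 and 6, and 35. No result changed direction with a call.

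Counts of the 9 genes passing moved as follows. At day 4 against gelatin ES cells (2), 1 passed with the floor at the 25th percentile, with the replicate block and without day 4 arrays 6 and 7, 0 passed with dim probe sets left out or with a 2-fold change required, and 1 to 2 passed when single arrays were omitted. At day 8 against day 4 (3), 0 passed with the floor at the 25th percentile or with a 2-fold change required, 5 with array weights, 1 with dim probe sets left out, and 2 to 3 when single arrays were omitted. At day 14 against day 8 (4), 2 passed with dim probe sets left out or with a 2-fold change required, 1 without day 8 arrays 1, 3 and 5, 3 with the floor at the 25th percentile, 6 with array weights (Ipp and Cd1d1 gained), and 3 to 4 when single arrays were omitted. At day 14 against gelatin ES cells (3), 5 passed with only the 2 groups compared or with array weights, 2 with the floor at the 25th percentile (Cd1d1 lost), 0 with a 2-fold change required, and 3 to 5 when single arrays were omitted. It was 5 without gelatin array 4.

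In the fit with the replicate number as a block, the 7th day 4 array carries no weight. There the Ldhc difference at day 4 against gelatin ES cells was 0.39 (adjusted p = 0.0927), and no other call was changed. Leaving out dim probe sets removes genes such as Ldhc, Cd1d1 and both Pramel genes from the fit, and a floor at the 25th percentile sets their low values equal. The causes of the other moves were not tested. Depth is not known for these values, and the number of arrays limits their precision.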
